A study of Mus musculus with 18 samples.

Results

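Cytosolic aminoacyl-tRNA synthetases were followed through 18 RNA-seq libraries of mouse colon. The 10 genes were the rows with the symbols Aars, Gars, Iars, Lars, Mars, Nars, Sars, Tars, Wars and Yars, older symbols in which the first letter names the amino acid. They were 10 of the 45777 rows of the count table, and all 10 were among the 18848 genes with enough counts to be tested. Colon tissue came from germ-free male C57BL/6J mice of 8 weeks, bred in sterile isolators. The 6 groups of 3 libraries, called biological replicates A, B and C in the design, were labelled LAO1KO (Lao1-/-) given DSS, DKO (Lao1-/- Il4i1-/-) given DSS, wild type (WT) given DSS, and LAO1KO, DKO and WT given sterile water. DSS, dextran sulfate sodium, is a sulfated polysaccharide that injures the colonic epithelium, and it was given at 2.5% in the drinking water for 24 hours. Both deleted genes code for oxidases of L-amino acids, enzymes that consume free amino acids. The labels give the alleles as null and do not say which exons were removed.

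An aminoacyl-tRNA synthetase joins an amino acid to the tRNAs that carry it to the ribosome, and protein synthesis in the cytosol depends on the family. Most of the enzymes serve a single amino acid. The enzymes form a pair of structural classes that arose separately. IARS, LARS, MARS, WARS and YARS belong to class I, and AARS, GARS, NARS, SARS and TARS to class II. IARS, LARS and MARS sit in the multisynthetase complex, a large assembly held together by scaffold proteins, and the others work outside it. Several synthetase genes are known targets of ATF4, the transcription factor made when amino acids run short or the endoplasmic reticulum is stressed. WARS is also known as an interferon-inducible gene. In the colon, where epithelial cells are replaced continually and secrete mucus, the demand for protein synthesis is high.

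The promoters of the 3 members that passed a test below are shown. They share a motif that Aars, which did not pass in the main fit, also has. RefSeq windows of GRCm38.p6 from 250 bases before to 50 bases after the start were matched for 7 of the 10 members, Mars under its newer symbol Mars1. Lars, Nars and Wars had no window in the table. Capitals mark TTGCATCA or its reverse complement TGATGCAA, a composite C/EBP and ATF site to which ATF4 can bind, and the E-box CACGTG. The windows of Iars (chr13:49681880-49682179, plus strand), Tars (chr15:11399609-11399908, minus strand) and Yars (chr4:129189653-129189952, plus strand) read as follows, each 5′ to 3′ along the gene's strand:
Iars: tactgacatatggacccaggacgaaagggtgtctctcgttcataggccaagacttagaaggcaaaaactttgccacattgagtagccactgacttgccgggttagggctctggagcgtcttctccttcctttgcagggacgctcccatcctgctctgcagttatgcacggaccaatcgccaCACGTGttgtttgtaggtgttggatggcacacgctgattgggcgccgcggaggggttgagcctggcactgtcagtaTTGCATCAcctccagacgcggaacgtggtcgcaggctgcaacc
Tars: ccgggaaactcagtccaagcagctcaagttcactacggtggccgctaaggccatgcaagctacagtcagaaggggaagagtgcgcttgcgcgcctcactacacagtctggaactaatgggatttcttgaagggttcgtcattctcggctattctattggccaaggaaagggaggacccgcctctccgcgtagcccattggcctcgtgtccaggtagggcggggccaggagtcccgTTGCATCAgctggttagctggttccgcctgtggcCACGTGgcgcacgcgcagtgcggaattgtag
Yars: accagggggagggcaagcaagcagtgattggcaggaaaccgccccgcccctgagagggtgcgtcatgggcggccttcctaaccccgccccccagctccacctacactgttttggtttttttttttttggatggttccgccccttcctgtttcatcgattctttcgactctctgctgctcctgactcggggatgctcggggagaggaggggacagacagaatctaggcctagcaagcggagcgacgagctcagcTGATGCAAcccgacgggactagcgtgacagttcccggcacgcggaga

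The composite site lay at 7 to 14 bases after the start in Iars, at 3 to 10 after it in Yars, and at -15 to -8 in Tars, where 0 is the start base of RefSeq. In GENCODE M21 Yars begins at 129189760, inside its window and before the RefSeq start, so the place of its site depends on the annotation. The letters TGATGCAA, searched on both strands, occurred in the windows of 4 of 7 members, Aars, Iars, Tars and Yars. They occurred in 0.895% of the 32851 windows in the table. With any base at the sixth position (TGATGNAA, which includes the stricter form), 5 of 7 members had a match, since Gars was added, against 3.97% of all windows. The E-box CACGTG was in the windows of Aars, Iars and Tars, 3 of 7, against 7.15% of all windows. The windows of Mars and Sars held none of these letters. A match describes the sequence and does not show that a factor bound there in these mice.

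By annotated position (GENCODE M21, GRCm38), the genes lay on chromosomes 8 (Aars), 6 (Gars), 13 (Iars, 49682100 to 49734267), 18 (Lars and Nars), 10 (Mars), 3 (Sars), 15 (Tars, 11382301 to 11399665), 12 (Wars) and 4 (Yars, 129189760 to 129219607). Counts were given per whole gene, so they sum over exons and transcript forms. Exons of Aars shared 1326 bases with Exosc6 on the same strand, those of Mars 68 bases with Ddit3 on the opposite strand, and those of Yars 30 bases with C77080 on the opposite strand. How strand and overlaps were counted was not given in the sources used here, so these 3 genes are uncertain to that extent. C77080 held 103765 counts over all libraries against 19039 for Yars. Exosc6 and Ddit3 held fewer than their partners, with 8646 against 34840 for Aars and 10456 against 14987 for Mars.

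Libraries held 26003174 to 36553193 counts. The 10 members together took 10041 to 32040 counts per library, which was 0.0369 to 0.109% of the total. All 10 colon epithelium markers were above 1 CPM (counts scaled to a common library size with TMM factors) in every library. So were all 6 goblet cell, 6 smooth muscle, 5 fibroblast, 5 macrophage, and 6 enteric neuron and glia markers. None of the 6 plasma and B cell markers and none of the 5 T cell markers was. Lao1 had 0 to 10 counts in any library and could not check its label, since libraries labelled LAO1KO and DKO held 31 and 32 counts in all, against 6 in WT. Il4i1 with the overlapping model Il4i1b had 12 counts over the 6 DKO libraries, against 252 over the 6 WT libraries. The share of counts in the 13 mitochondrially encoded mRNAs was 15.8 to 23.2% in LAO1KO, 14.3 to 23.6% in DKO and 26.1 to 44.9% in WT colons given DSS, against 8.67 to 14.4%, 10.5 to 20.7% and 6.89 to 9.08% in the same genotypes on water. The clock gene Dbp was at 49.2 to 131 CPM in the 9 DSS libraries and at 6.02 to 35.5 CPM in the 9 water libraries. The hour of collection was not labelled, so DSS and time of day cannot be told apart for any gene. On water Dbp was at 9.45 to 35.5 CPM in LAO1KO and 22.1 to 29.4 CPM in DKO, against 6.02 to 13.6 CPM in WT. Among colons given DSS it was at 71.9 to 88.5 CPM in LAO1KO and 49.2 to 55.1 CPM in DKO. WT colons given DSS had 107 to 131 CPM, with no overlap between the genotypes. Genotype and time of day therefore cannot be told apart either, on water, with DSS or in the difference between DSS responses. In whole tissue, fewer cells of a type and less RNA per cell cannot be told apart either.

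**Figure D1:**
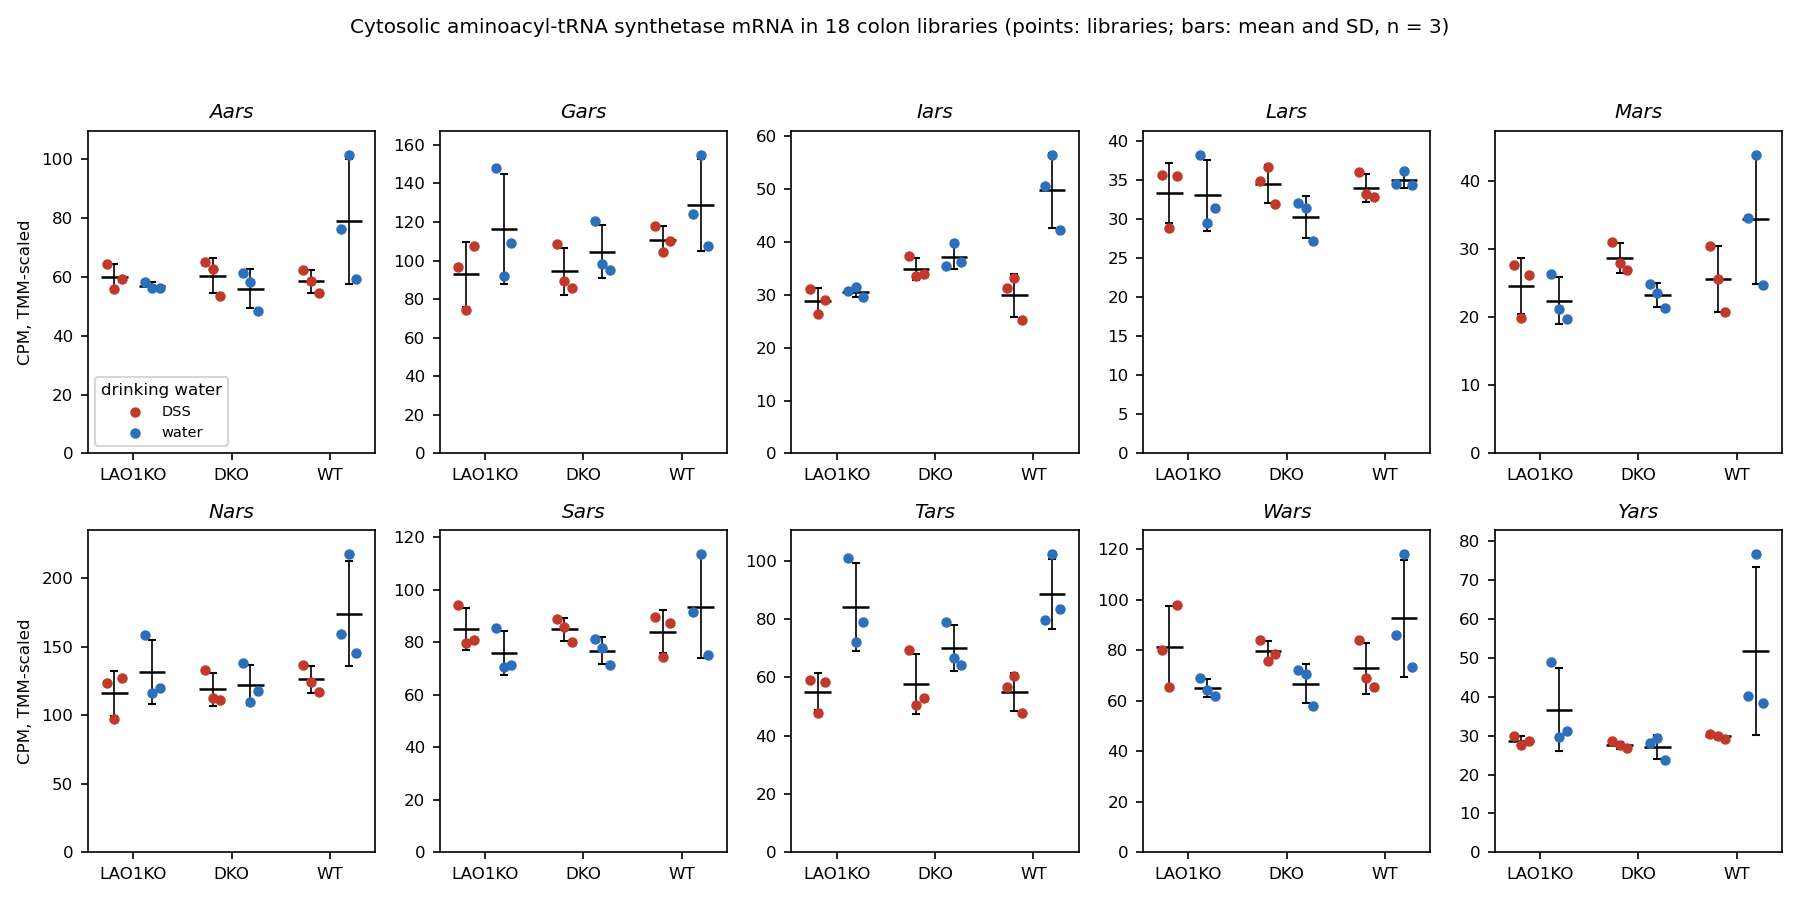
Level of each synthetase mRNA in CPM (TMM-scaled) on a linear axis from 0, by genotype, with DSS in red and water in blue. Points are libraries, and bars are the mean and SD of 3. WT colons on water carry the highest mean for every gene shown, with replicate B at the top of that group for all 10.

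Per kilobase of annotated exon, Gars had the highest level and Yars the lowest. The mean over the 18 libraries was 34.6 ± 6.48 CPM per kb for Gars, 30.2 ± 6.23 for Nars, 22.1 ± 4.19 for Wars, 16.2 ± 2.04 for Sars and 11.6 ± 2.79 for Tars (SD, n = 18). Mars had 7.75 ± 1.74 CPM per kb, Iars 6.67 ± 1.52, Aars 6.66 ± 1.24, Lars 6.21 ± 0.549 and Yars 5.65 ± 2.06. The ranges of all neighbours in this order overlapped. Within single libraries the order was firmer at the top, with Nars above Wars, Wars above Sars and Tars above Mars in 18 of 18 libraries. Iars was above Aars in 7 of 18 libraries, so these neighbours had no fixed order. With the length of the longest transcript in place of the exon union, Nars (47.9 CPM per kb) was above Gars (45.4) and Yars was sixth (11.5), so the order depends on the length used.

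Lars, the leucine enzyme, varied least, between 27.2 and 38.2 CPM over all libraries. Yars, the tyrosine enzyme, varied most, between 23.7 and 76.6 CPM. Summed over the 10 members, the level was 523 to 650 CPM in LAO1KO, 582 to 681 CPM in DKO and 590 to 676.6 CPM in WT colons given DSS. On water it was 583 to 764 CPM in LAO1KO, 563 to 673 CPM in DKO and 684 to 1021 CPM in WT. The WT water group therefore stood above the other 5 groups in its mean (827 ± 174 CPM, SD, n = 3), and its replicate B alone reached 1021 CPM.

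The mRNAs of the threonine and isoleucine enzymes were lower with DSS, averaged over the 3 genotypes, and that of none of the 10 was higher. Tars was 0.695-fold (log2 fold change -0.53, SE 0.09; adjusted p = 0.00169 in edgeR) and Iars 0.811-fold (-0.30 ± 0.07; 0.01). The other 8 did not pass, the nearest being Yars (-0.37 ± 0.13; edgeR adjusted p = 0.0527). The 2 of 10 lower members stand beside 9.18% of all tested genes that were lower in this comparison and 15.9% called in either direction. Unadjusted, 5 members had a p under 0.05, beside 32.2% of all genes. The members' median log2 fold change was -0.155, against 0.0309 for all tested genes.

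Tars, which charges tRNA with threonine, had 58.9, 47.7 and 58.4 CPM in LAO1KO colons given DSS, against 100.9, 72.1 and 79.1 CPM in LAO1KO colons on water. It had 69.4, 50.6 and 52.8 CPM in DKO colons given DSS, against 79.1, 66.5 and 64.4 CPM in DKO colons on water. In WT it had 56.8, 60.4 and 47.8 CPM with DSS, against 79.7, 102 and 83.4 CPM on water. The DSS and water libraries did not overlap in LAO1KO or in WT, and in DKO replicate A of the DSS group lay within the water group. Its log2 fold change was -0.61 ± 0.16 in LAO1KO, -0.28 ± 0.16 in DKO and -0.68 ± 0.16 in WT. Of these, WT alone passed (edgeR adjusted p = 0.0116), and the tests of the differences between genotypes did not pass (0.905 for LAO1KO and 0.403 for DKO against WT). Over all genotypes Tars passed in 18 of 18 fits that left out 1 library, with log2 fold changes between -0.58 and -0.49.

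Iars, the isoleucine enzyme of the multisynthetase complex, had 31.2, 33.2 and 25.3 CPM in WT colons given DSS, against 50.5, 56.4 and 42.3 CPM in WT colons on water. All 3 DSS libraries lay below all 3 water libraries. In LAO1KO it had 31.1, 26.4 and 28.9 CPM with DSS, against 30.7, 31.4 and 29.6 CPM on water. In DKO it had 37.3, 33.5 and 34.0 CPM with DSS, against 35.4, 39.7 and 36.3 CPM on water, so DSS and water overlapped in both knockouts. Its log2 fold change was -0.73 ± 0.12 in WT (edgeR adjusted p = 0.00265), beside -0.08 ± 0.12 in LAO1KO and -0.09 ± 0.12 in DKO. The averaged Iars result passed in 18 of 18 fits that left out 1 library, with adjusted p from 0.00512 to 0.0245.

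**Figure D2:**
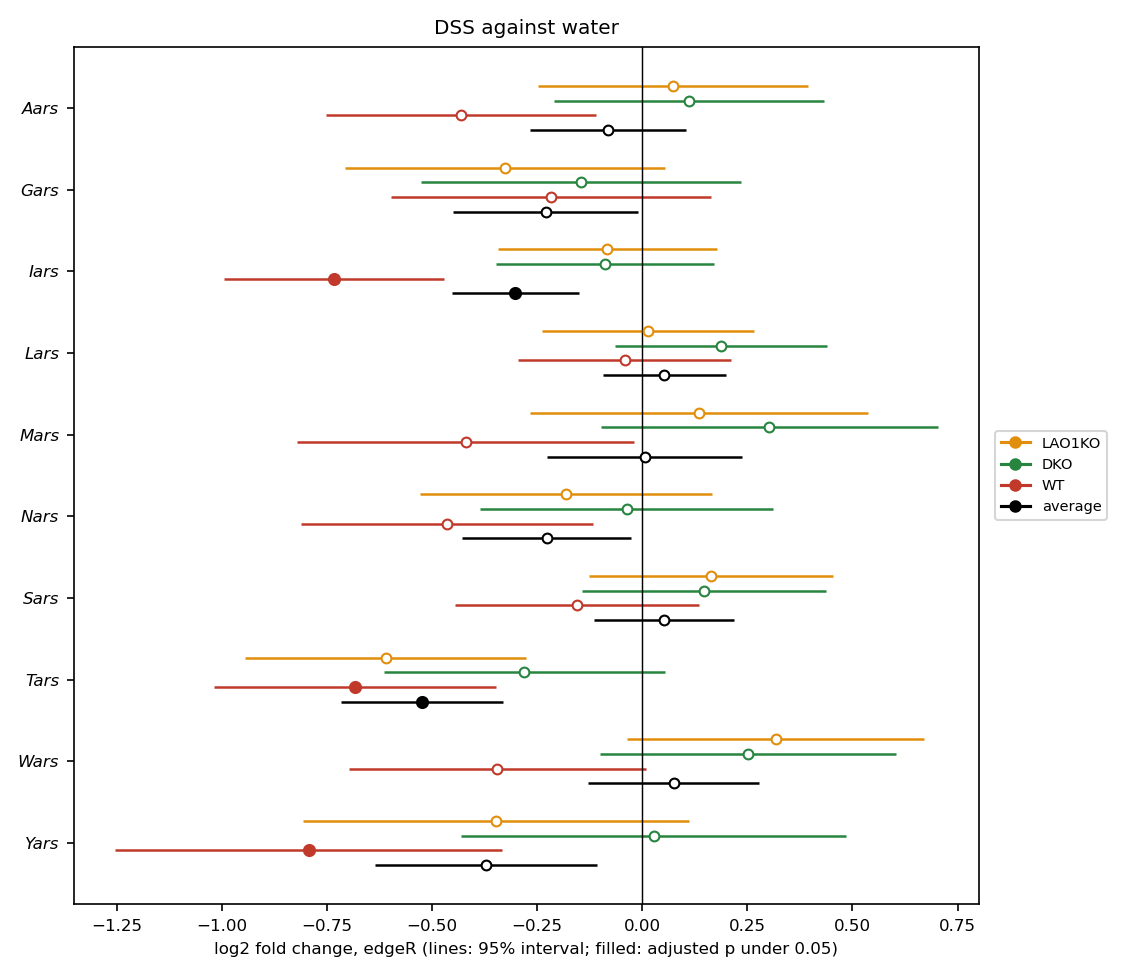
Log2 fold change of DSS over water for each synthetase in LAO1KO (orange), DKO (green), WT (red) and averaged over genotypes (black). Lines are 95% intervals of the edgeR estimate and filled points have an adjusted p under 0.05: Iars, Tars and Yars in WT, and Iars and Tars in the average.

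In WT colons 3 of the 10 members were lower with DSS, Iars, Tars and Yars, and the estimates of all 10 were negative (9 without WT water replicate B). Beside this, 12.9% of tested genes were called in either direction and 6.59% were lower. Unadjusted, 6 members had a p under 0.05, beside 29.5% of all genes. The members' median log2 fold change was -0.426, against 0.0232 for all tested genes, and -0.209 without WT water replicate B. The class I members had a median of -0.421 and the class II members of -0.431, which are close. Of the complex-bound enzymes Iars passed, while Mars (-0.42 ± 0.19; edgeR adjusted p = 0.15) and Lars (-0.04 ± 0.12; 0.849) did not.

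Yars, the tyrosine enzyme, which has a cytokine-like part when it is cleaved outside the cell, had 30.4, 29.9 and 29.1 CPM in WT colons given DSS, against 40.2, 76.6 and 38.3 CPM in WT colons on water. The groups did not overlap, and the log2 fold change of Yars was -0.79 ± 0.22 (edgeR adjusted p = 0.0258). It was -0.40 with an adjusted p of 0.173 without WT water replicate B, and Yars also failed without WT DSS replicate A (0.0521) and without WT DSS replicate C (0.0778). The overlapping C77080 was also lower with DSS in WT (-0.54; edgeR adjusted p = 0.0228), and its part in the Yars count was not tested.

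Among the other members, Nars, the asparagine enzyme, had 137, 124 and 117 CPM in WT colons given DSS, against 159, 218 and 145 CPM on water, with no overlap (-0.47 ± 0.17; edgeR adjusted p = 0.0707). With Iars, Tars and Yars it made 4 members without overlap between the groups, all with DSS below water, beside 15.8% of all tested genes. Aars, the alanine enzyme, had 54.5 to 62.5 CPM with DSS and 59.2 to 102 CPM on water (-0.43 ± 0.15; 0.0696). Same-lettered WT libraries deviated together weakly (r of 0.165 to 0.217), the single pair of groups among 15 with all letters above 0.1. With the letter as a replicate block over all groups Aars passed (-0.42; edgeR adjusted p = 0.0473), which made 4 lower members. The other pairs of groups gave no ground for that block. With the block in the WT libraries alone it did not (-0.40; 0.0529), and Iars, Tars and Yars passed under both. Wars (-0.34 ± 0.17), Gars (-0.22 ± 0.18) and Sars (-0.15 ± 0.14), the tryptophan, glycine and serine enzymes, had overlapping groups and did not pass.

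The number of members called in WT moved with 1 library. Leaving out WT water replicate B, the count of lower members was 1 (Iars), and without WT water replicate C it was 6 (Aars, Iars, Mars, Nars, Tars and Yars). Iars passed in all 6 fits that left out a WT library, with log2 fold changes from -0.85 to -0.63, and Tars in 5 of 6, the exception being -0.57 (edgeR adjusted p = 0.0603) without WT water replicate B. WT DSS replicate C had the lowest scaling factor of the 18 (0.625). Without both it and WT water replicate B, Iars was -0.56 (0.0469), Tars -0.51 (0.148) and Yars -0.41 (0.269). With the 13 mitochondrial mRNAs left out before scaling, the same 3 members passed, and Iars was -0.74.

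Markers of other cells differed in the same contrast. The summed level of the 5 fibroblast markers, all above 1 CPM in every library, was 281 to 615 CPM in WT colons given DSS, against 615 to 1074 CPM in WT colons on water, and 3 of the 5 fell. The 6 enteric neuron and glia markers, also above 1 CPM throughout, summed to 137 to 181 CPM with DSS and 63.7 to 90.6 CPM on water, and 3 of 6 rose. Neither list had a call without WT water replicate B or without WT DSS replicate C. Of 6 goblet cell markers 1 rose and 2 fell. Beside these marker counts, 12.9% of all tested genes were called in either direction. The part of these markers in the synthetase result was not tested. The 10 epithelium markers had a median log2 fold change of -0.253, and none of them passed.

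**Figure D3:**
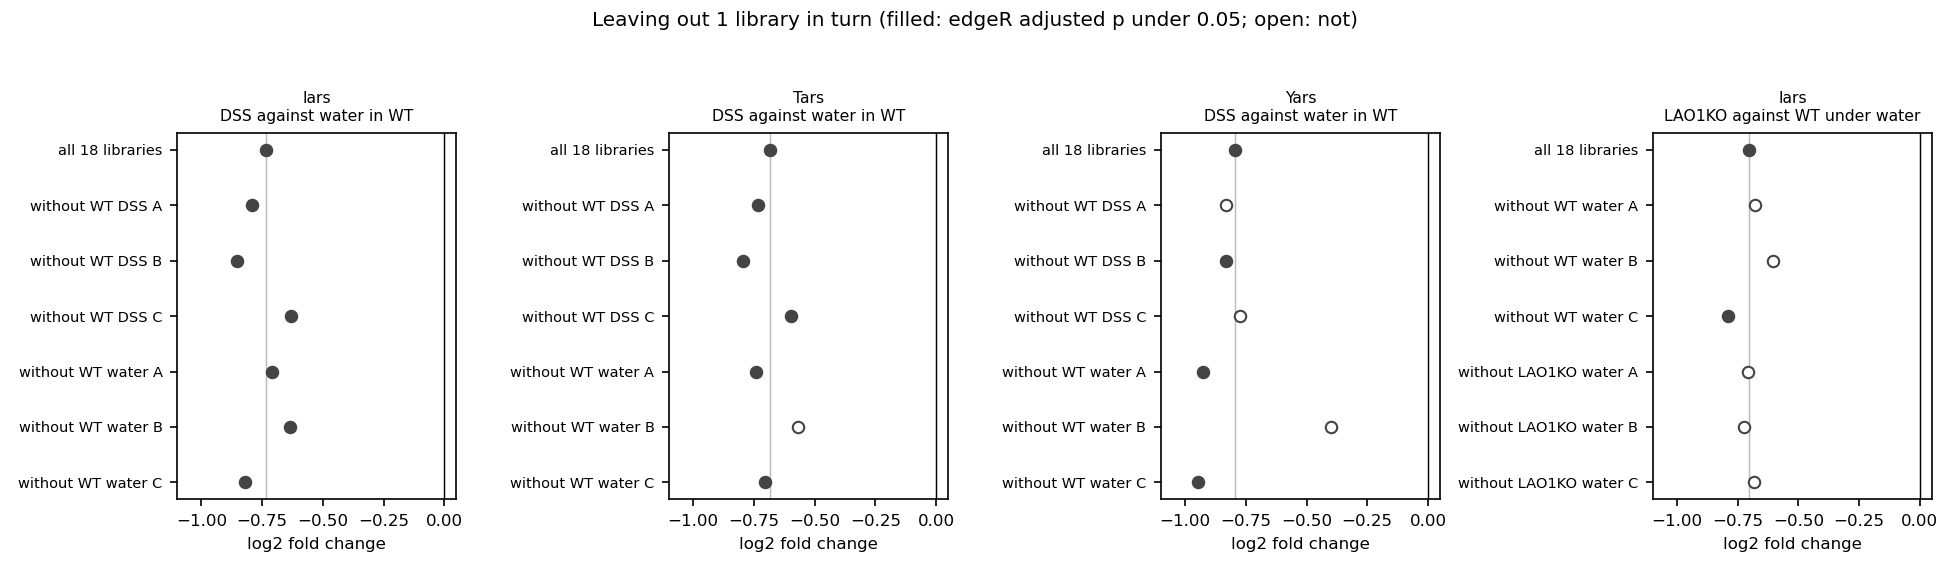
Log2 fold change of Iars, Tars and Yars for DSS over water in WT, and of Iars for LAO1KO over WT on water, with all 18 libraries and with each library of the compared groups left out. Filled points have an edgeR adjusted p under 0.05, and the grey line is the estimate from all libraries. Yars moves from -0.79 to -0.40 without WT water replicate B, and the Iars genotype difference is filled in 1 of its 6 left-out fits.

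In libraries labelled LAO1KO none of the 10 passed for DSS against water, where 0.196% of tested genes were called. One member had an unadjusted p under 0.05 in edgeR, Tars (edgeR adjusted p = 0.103), beside 15.6% of all genes, and it was also the single member without overlap between groups, beside 10.1% of all genes lower without overlap. DESeq2 called 1 member (Tars), beside 674 of the 18848 tested genes. The limma voom fit with library weights called 4, Tars lower and Mars, Sars and Wars higher, beside 5029 genes. Wars had 80.1, 65.4 and 97.9 CPM in LAO1KO colons given DSS, against 68.9, 64.3 and 62.0 CPM in LAO1KO colons on water, and replicate B of the DSS group lay within the water group (0.32 ± 0.17; edgeR adjusted p = 0.37). Members split evenly, with 5 estimates below and 5 above 0 and a median of -0.0354.

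In DKO colons none of the 10 passed either, where 0.0159% of tested genes were called, and none had an unadjusted p under 0.05 in edgeR, beside 9.59% of all genes. Neither DESeq2 nor limma voom called a member there. Wars had 84.1, 75.8 and 78.7 CPM with DSS, against 72.0, 70.5 and 57.8 CPM on water (0.25 ± 0.17; edgeR adjusted p = 0.662). Mars, the methionine enzyme, had 31.1, 28 and 26.9 CPM with DSS, against 25, 23.5 and 21.4 CPM on water (0.30 ± 0.19; 0.638). Both genes were without overlap, DSS above water, as were 8.39% of all tested genes. The members' median was 0.0685.

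The design also asks whether the response to DSS depended on genotype. For LAO1KO against WT none of the 10 members passed, and 0 of 18848 genes were called (0%). For DKO against WT none of the 10 passed, with 0.0584% of genes called. Iars came nearest in both, with a difference in log2 fold change of 0.65 ± 0.18 for LAO1KO (edgeR adjusted p = 0.146) and 0.65 ± 0.17 for DKO (0.124). Unadjusted p values under 0.05 in edgeR were held by 3 members for LAO1KO, beside 15.9% of all genes, and by 5 for DKO, beside 15.4%. The estimates were positive, the DSS response being less negative or more positive in the knockout, in 9 of 10 members for LAO1KO (median 0.381, against -0.0108 for all genes) and in 10 of 10 for DKO (median 0.485, against 0.00245). Both comparisons share the 6 WT libraries, so their like direction is not a repeat. DESeq2 called Iars in both, beside 441 of 18848 genes for LAO1KO and 492 for DKO. The limma voom fit called Iars, Mars and Wars for LAO1KO, beside 2354 genes, and none for DKO, beside 214.

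On water, Iars was lower in colons labelled LAO1KO than in WT, and the other 9 members did not pass. It had 30.7, 31.4 and 29.6 CPM in LAO1KO, against 50.5, 56.4 and 42.3 CPM in WT, with no overlap. The log2 fold change was -0.70 ± 0.12 (edgeR adjusted p = 0.0477), and the 1 of 10 stands beside 0.0531% of tested genes called in either direction and 0.0212% lower. All 10 estimates were negative, with a median of -0.438 against 0.0139 for all genes, and 7 members had an unadjusted p under 0.05, beside 14.3% of all genes. Leaving out WT water replicate B, 8 estimates were negative and the median was -0.175. Of 14 clock genes none passed in this comparison and 6 had an unadjusted p under 0.05, Dbp among them (26.3 ± 14.6 CPM in LAO1KO and 9.83 ± 3.79 CPM in WT, SD, n = 3 each; edgeR adjusted p = 0.183), and their part in the Iars difference was not tested. The Iars call was narrow, since its adjusted p was 0.0715 to 0.232 in 5 of 6 fits that left out 1 library and 0.0533 with no filter on low counts. Its log2 fold change lay between -0.79 and -0.60 in those 6 fits. The WT water libraries in this comparison are the same ones that DSS was set against in WT.

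Aars had 58.4, 56.4 and 56.1 CPM in LAO1KO colons on water, against 76.2, 102 and 59.2 CPM in WT colons on water (-0.47 ± 0.15; edgeR adjusted p = 0.219). Wars had 68.9, 64.3 and 62.0 CPM, against 86.1, 118 and 73.5 CPM in WT (-0.51 ± 0.17; 0.223). With Iars they made 3 members without overlap, LAO1KO below WT, beside 8.22% of all tested genes. Mars (-0.61 ± 0.19; 0.204) and Yars (-0.50 ± 0.22; 0.306) had overlapping groups. Tars, which passed with DSS, had overlapping groups here, with 72.1 to 101 CPM in LAO1KO and 79.7 to 102 CPM in WT (-0.07, 95% interval -0.41 to 0.26).

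**Figure D4:**
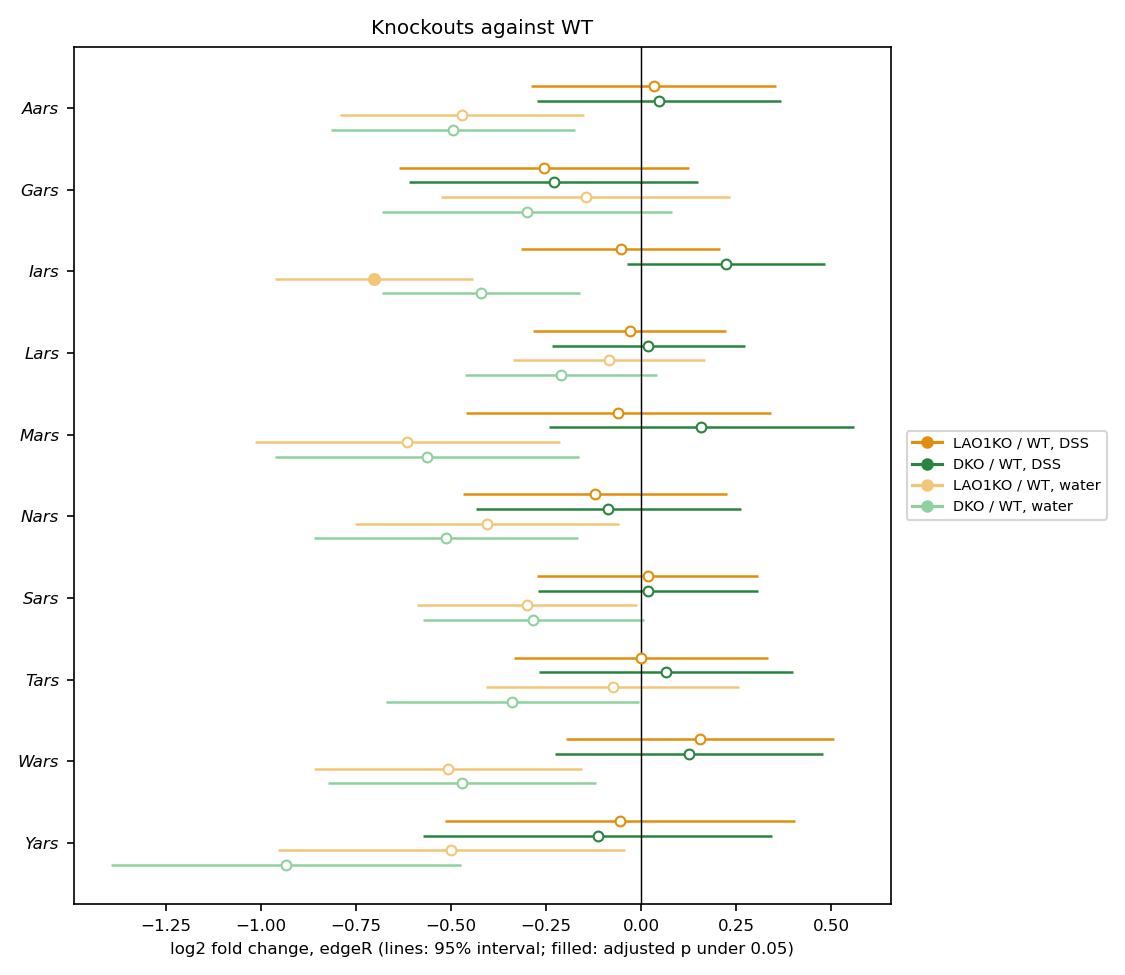
Log2 fold change of the knockouts over WT for each synthetase, with DSS (dark) and on water (light), LAO1KO in orange and DKO in green. Lines are 95% intervals of the edgeR estimate, and Iars in LAO1KO on water is the single filled point (adjusted p = 0.0477). On water all 10 estimates of each knockout lie left of 0, while with DSS they lie on both sides of it.

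In DKO colons on water no member passed against WT, where 0.621% of tested genes were called. Yars came nearest, with 28.1, 29.4 and 23.7 CPM in DKO, against 40.2, 76.6 and 38.3 CPM in WT (-0.93 ± 0.22; edgeR adjusted p = 0.0606). It was -0.56 without WT water replicate B, when the median of the 10 members was -0.287. Again all 10 estimates were negative (median -0.446, against 0.0106 for all genes), and 7 members had an unadjusted p under 0.05, beside 17.3% of all genes. Iars, Lars, Nars, Tars, Wars and Yars had no overlap, DKO below WT, which is 6 of 10 beside 9.86% of all genes. DESeq2 called 4 members, Aars, Iars, Nars and Yars, beside 783 of the 18848 tested genes. Without WT water replicate C edgeR called 4, Aars, Iars, Mars and Yars. Fits without 1 library called 30 to 387 genes in this comparison. Markers of several cell types differed between the same libraries. The 5 fibroblast markers summed to 320 to 668 CPM in LAO1KO and 301 to 520 CPM in DKO colons on water, against 615 to 1074 CPM in WT. The 6 goblet cell markers summed to 7765 to 12580 CPM in LAO1KO and 6581 to 7611 CPM in DKO, against 9404 to 11610 CPM in WT, and the 6 smooth muscle markers to 2983 to 8055 CPM in LAO1KO and 2085 to 4997 CPM in DKO, against 5221 to 8293 CPM in WT. All 3 sums were lower in every DKO library than in every WT library, while LAO1KO overlapped WT. All of these markers were above 1 CPM in every library, and none of them passed in either comparison. Of the 14 clock genes none passed for DKO against WT on water and 8 had an unadjusted p under 0.05, Dbp among them (1.45 ± 0.37; edgeR adjusted p = 0.0902). The part of these markers and clock genes in the synthetase estimates was not tested.

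With DSS the synthetase levels of the genotypes were close. Among the clock genes, Arntl passed for DKO against WT with DSS (1.10 ± 0.18; edgeR adjusted p = 0.00897). Dbp had an estimate of -1.18 ± 0.36 there and did not pass (0.321), and no clock gene passed for LAO1KO against WT. The part of the clock genes in the synthetase estimates was not tested. No member passed for LAO1KO against WT, where 0.0849% of tested genes were called, or for DKO against WT, where 0.255% were, and no member had an unadjusted p under 0.05 in either, beside 6.02% and 9.69% of all genes. DESeq2 and limma voom also called none. In LAO1KO the nearest was Gars, with 96.6, 74.5 and 107 CPM against 118, 105 and 109.9 CPM in WT (-0.26 ± 0.18; edgeR adjusted p = 0.838). In DKO it was Iars, with 37.3, 33.5 and 34.0 CPM against 31.2, 33.2 and 25.3 CPM in WT, where the groups did not overlap (0.22 ± 0.12; 0.554). Yars had no overlap in the other direction, with 26.7 to 28.5 CPM in DKO and 29.1 to 30.4 CPM in WT. These 2 of 10 stand beside 9.83% of genes without overlap and higher and 11.6% without overlap and lower. The 95% intervals of the log2 fold change reached at most 0.64 on the negative side (Gars in LAO1KO, -0.64 to 0.13) and 0.56 on the positive side (Mars in DKO, -0.24 to 0.56). With 3 libraries per group, differences inside a gene's own interval remain possible.

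Averaged over both drinking conditions, no member passed for LAO1KO against WT (0.133% of genes called), for DKO against WT (0.562%) or for DKO against LAO1KO (0.239%). Unadjusted p values under 0.05 were held by 3, 2 and 1 of the 10 in that order, beside 4.8%, 10.8% and 7.21% of all genes. The nearest were Iars for LAO1KO against WT (-0.38 ± 0.09; edgeR adjusted p = 0.239), which both DESeq2 and limma voom called, Yars for DKO against WT (-0.52 ± 0.15; 0.229) and Iars for DKO against LAO1KO (0.28 ± 0.09; 0.501).

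Across the 18 libraries the members moved together to different degrees, as a description of libraries that share groups and scaling. Pearson's r of log2 CPM with the mean of the other 9 was highest for Nars (0.933) and Aars (0.896) and lowest for Lars (0.627) and Tars (0.596). The nearest pair was Gars and Nars (0.905), followed by Nars and Yars (0.888) and Mars and Wars (0.884). Tars stood farthest from Sars (0.19) and from Wars (0.241). Without WT water replicate B the r with the other 9 was lower for 9 members, 0.423 for Iars and 0.428 for Tars, and higher for Lars (0.722). Among 13459 other genes with a mean of at least 1 CPM, the ones whose levels followed the mean of the members most closely were Alas1 (r = 0.966), Nans (0.962), Nek6 (0.947), Tomm40 (0.945) and Ddx24 (0.944). For Wars alone they were Idh3b (0.912), Cenpb (0.876), Npm3 (0.873), Phgdh (0.872) and Slc30a6 (0.865).

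The other genes of tRNA charging and of its control were set beside the members as lists. Of all tested genes, 9.18% were lower with DSS in the average and 15.9% were called in either direction. In WT these shares were 6.59% and 12.9%, and they stand beside the list counts below. With DSS averaged over genotypes, 3 of 11 other cytosolic synthetase genes fell and none rose, with a median log2 fold change of -0.174. Those 3 were Dars, the aspartate enzyme (-0.34 ± 0.08; edgeR adjusted p = 0.00976), Farsb, a subunit of the phenylalanine enzyme (-0.25 ± 0.07; 0.0273), and Tarsl2, a second threonine enzyme (-0.43 ± 0.11; 0.0116). Tarsl2, whose sequence resembles that of Tars, held 3236 counts in all 18 libraries. In WT, Farsb (-0.45 ± 0.13; 0.0291) and Eprs, the glutamate and proline enzyme (-0.42 ± 0.12; 0.0246), passed among 11 with a median of -0.39. None of the 11 passed in WT without WT water replicate A, WT water replicate B or WT DSS replicate C. Of the 17 mitochondrial synthetases, 2 fell in the average, Nars2 (-0.35 ± 0.10; 0.0231) and Wars2 (-0.25 ± 0.07; 0.0304), and Lars2 rose (1.64 ± 0.45; 0.026). Lars2 was very uneven, with 4250 ± 4520 CPM in LAO1KO colons given DSS against 318 ± 77.6 CPM in LAO1KO colons on water (SD, n = 3 each). In DKO it had 639 ± 453 against 281 ± 16.6 CPM, and in WT it was level, with 649 ± 334 against 648 ± 541 CPM. Its libraries held 248 to 9370 CPM, while Iars2, the next highest of this list, held 60.7 to 93.9 CPM. Lars2 did not pass without WT water replicate B or without DKO water replicate A. The number of mitochondrial synthetases that fell was 0 without DKO DSS replicate C and at most 3 in the other fits without 1 library. None of the 3 scaffold genes of the multisynthetase complex, Aimp1, Aimp2 and Eef1e1, passed.

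Of 26 ATF4 target genes, 3 fell and none rose with DSS in the average, with a median of -0.0598, beside 9.18% of all tested genes lower. The 3 were the amino acid transporters Slc7a1 (-0.33 ± 0.08; edgeR adjusted p = 0.0145) and Slc1a4 (-0.47 ± 0.14; 0.0292) and the factor Cebpg (-0.21 ± 0.07; 0.0427). Without WT water replicate B 2 fell and 1 rose, and the median was 0.0601, with the opposite sign, while 1 to 4 fell in the other fits without 1 library. In WT 6 of 26 fell and none rose, beside 6.59% of all tested genes lower. The median of the 26 was -0.637, beside the members' -0.426. Without WT water replicate B the count was 1 and the median -0.164, beside the members' -0.209. With WT DSS replicate C left out the count was 2, with WT water replicate A left out it was 4, and it reached 10 when WT water replicate C was dropped. Slc7a1 had 17.5 ± 2.47 CPM in WT colons given DSS, against 31.6 ± 6.08 CPM in WT colons on water (SD, n = 3 each; -0.85 ± 0.14; edgeR adjusted p = 0.00265). Slc7a5, the large neutral amino acid transporter, had 3.05 ± 1.3 CPM, against 9.82 ± 4.52 CPM (-1.70 ± 0.36; 0.0083). Atf4 mRNA itself had 248 ± 10.7 CPM, against 192 ± 37 CPM (0.37 ± 0.14; 0.0797), so its estimate had the opposite sign to those of the members. In LAO1KO and in DKO none of the 26 passed for DSS, with medians of 0.0601 and 0.169, and none passed on water against WT, where 23 of 26 estimates were negative for LAO1KO and 21 of 26 for DKO, and 17 of 26 for each without WT water replicate B.

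Of the 8 genes for ATF4, the eIF2 kinases and their partners, 3 fell with DSS in the average, the kinase gene Eif2ak1 (-0.25 ± 0.05; edgeR adjusted p = 0.00387), the phosphatase subunit Ppp1r15b (-0.34 ± 0.09; 0.0152) and Eif2s1, which encodes the alpha subunit of eIF2 (-0.39 ± 0.12; 0.0364). A list of 6 held the subunits of EEF1, which brings charged tRNAs to the ribosome, with Eef2 and Eef2k. None of the EEF1 genes passed, while Eef2, whose protein moves the ribosome along the mRNA (-0.33 ± 0.10; 0.0286), and Eef2k, which encodes the kinase that inhibits EEF2 (-0.44 ± 0.08; 0.00198), fell. Of 18 genes of the unfolded protein response, which serves the folding of secreted proteins, 9 fell and none rose, with a median of -0.219. The chaperone gene Hspa5 was among them (-0.51 ± 0.12; 0.0079). In the order WT, LAO1KO and DKO, the estimates for DSS were -0.66, -0.82 and -0.06 for Hspa5. They were -0.69, -0.15 and -0.15 for Eef2, and -0.63, -0.36 and -0.33 for Eef2k. For Eif2ak1 they were -0.28, -0.23 and -0.24, for Ppp1r15b -0.37, -0.40 and -0.26, and for Eif2s1 -0.56, -0.35 and -0.26. These genes did not pass in LAO1KO or DKO. Of 21 interferon gamma response genes, 1 rose in the average, Cxcl10 (1.2 ± 0.28; 0.0091), with a median of 0.309. In WT 4 of these rose, Psmb8 (1.48 ± 0.34; 0.0133), Psmb9, Psmb10 and Tap2, while Wars, the interferon-inducible member, had an estimate of -0.34. Without WT water replicate B 1 of these rose, and 2 to 6 did in the other fits without 1 WT library. Psmb8, Psmb10, Tap2 and Atf4 were named after their values were seen.

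**Figure D5:**
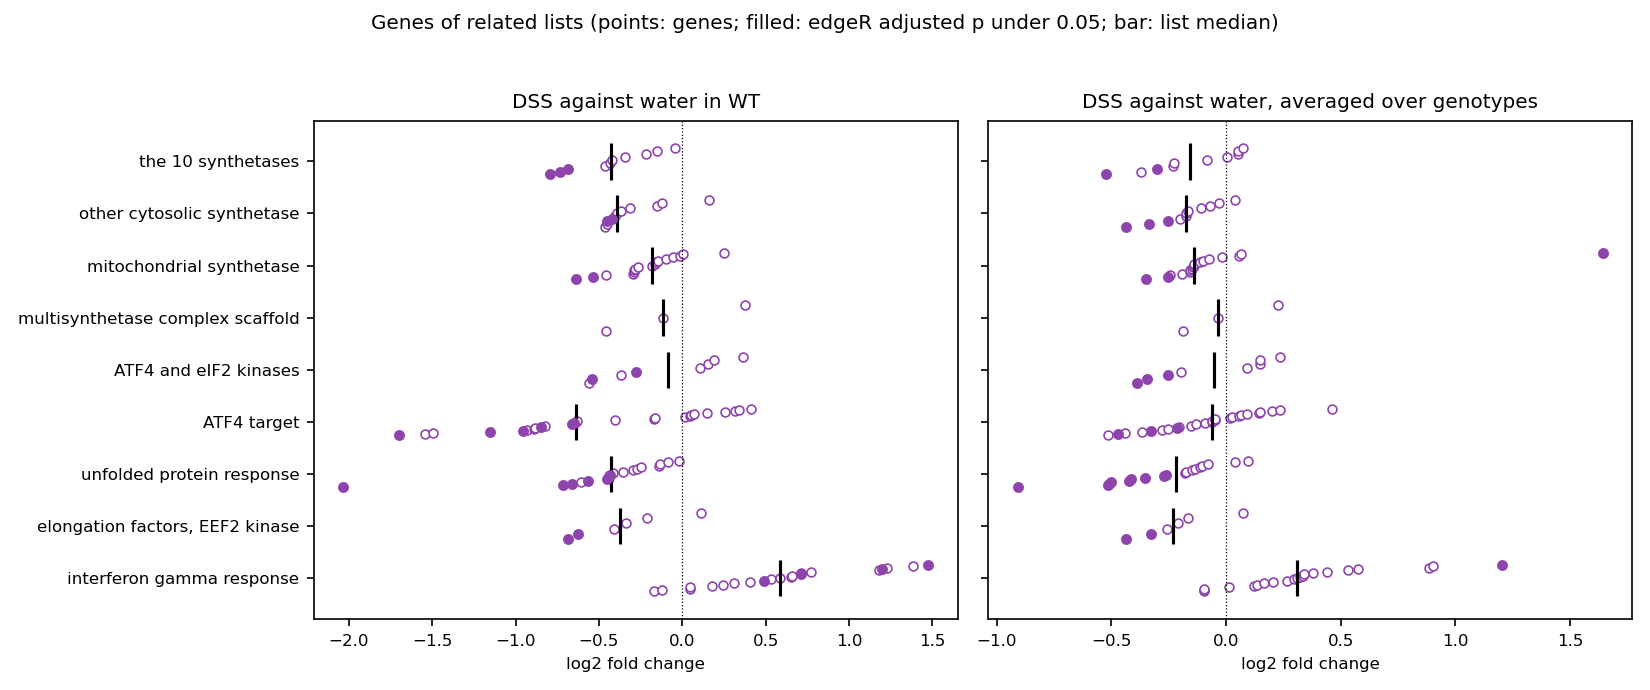
Log2 fold change of DSS over water in WT (left) and averaged over genotypes (right) for the 10 synthetases and for related gene lists. Each point is a gene, filled where the edgeR adjusted p was under 0.05, and each bar is the median of a list. In WT the medians of the 10 synthetases (-0.426), the other cytosolic synthetases (-0.39) and the ATF4 targets (-0.637) lie left of 0, and that of the interferon gamma response (0.584) lies right of it. Without WT water replicate B the medians in WT were -0.209 for the 10 synthetases and -0.164 for the ATF4 targets.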

How the data were processed

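Messenger RNA of 18 mouse colon libraries (6 groups of 3) was counted per gene symbol. The deposited values are raw whole-number counts, 1 column per library. Per the submitters' processing notes, the tools were HISAT2 2.1.0, StringTie 2.1.3b, Trimmomatic 0.38, FastQC 0.11.7, R 4.3.2 and DESeq2 1.42.1, and the builds named are GRCm38 and mm10; their order and settings are not given in the sources used here. Libraries were made with a stranded mRNA kit, per the labels' protocols.

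From the counts, filterByExpr kept 18848 of 45777 genes, and edgeR 4.0.16 in R 4.3.3 (TMM scaling, robust quasi-likelihood fit, 1 mean per group over all 18 libraries) tested 13 comparisons with glmQLFTest. Benjamini-Hochberg adjustment ran over all 18848 genes of each comparison, with a threshold of 0.05. The SE of a log2 fold change is its size over the root of its F value. P-values measure the spread between libraries that the design calls biological replicates. Depth was 26003174 to 36553193 counts per library; 3 libraries per group, not counting error, set the precision of genes at these levels. Replicates of a group differed by more than sampling noise (chi-square per degree of freedom of 17.2 or more), so none was a copy of another. The procedure was tested on simulated counts. Same-lettered libraries deviated together, with an r above 0.1 for all 3 letters, in 1 of 15 pairs of groups. That pair was WT with DSS and WT on water (r of 0.165 to 0.217). Over all groups, 13 of 45 same-letter values of r were above 0.1. The main fit did not pair libraries, and the letters entered only the alternatives with a block. The labels do not say what a letter marks.

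Levels per kilobase used GENCODE M21 exon unions, and promoters came from RefSeq. Alternatives were DESeq2 1.42.0, limma 3.58.1 voom with library weights, other size factors, no low-count filter, the replicate letter as a block over all groups and, added later, in WT alone, mitochondrial mRNAs left out, and each library left out.

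All 10 members are named. List genes are named up to 4 per list by smallest p in the averaged DSS comparison, except where stated. Genes most like the members are the 5 with the highest r. The members, lists and markers were chosen with earlier results of these data known. Correlations, list counts and motif shares are descriptions without tests.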

Additional observations from a re-analysis of the deposited data

How the results depend on the processing

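No member's log2 fold change changed sign under the 6 alternatives or in the fits that left out 1 library, for the members that passed or came nearest in each comparison. The averaged DSS comparison kept 2 or 3 lower members throughout. For DSS in WT the count of 3 was 5 with DESeq2, 1 without both WT water B and WT DSS C (an alternative added after the data were seen) and 1 to 6 without 1 library. For DSS in LAO1KO the count of 0 was 1 with DESeq2 and 4 with limma voom. For LAO1KO against WT on water the count of 1 was 4 with limma voom, 0 with no filter, 0 without both libraries and 0 to 2 without 1 library. For DKO against WT on water the count of 0 was 4 with DESeq2 and 0 to 4 without 1 library. For LAO1KO against WT averaged over drinking conditions it was 1 with DESeq2 and 1 with limma voom. For the DSS response of LAO1KO against that of WT it was 1 with DESeq2 and 3 with limma voom, and for DKO 1 with DESeq2. The cause was not tested. Counts over all genes moved more: DSS in WT called 2428 genes, 777 to 2702 without 1 library and 231 without both; the averaged DSS comparison called 2996, 3988 with DESeq2 and 6224 with limma voom; DSS in LAO1KO called 37, 674 with DESeq2, 5029 with limma voom and 1 to 346 without 1 library. On water, LAO1KO against WT called 10, 298 with DESeq2, 934 with limma voom and 5 to 105 without 1 library, and DKO against WT called 117, 783 with DESeq2 and 30 to 387 without 1 library. LAO1KO against WT averaged over drinking conditions called 25, 51 with DESeq2 and 103 with limma voom. The difference in DSS response called 0 for LAO1KO, 441 with DESeq2 and 2354 with limma voom, and 11 for DKO, 492 with DESeq2 and 214 with limma voom. DESeq2 and limma voom called 174 and 442 for DSS in DKO (3 in edgeR), 55 and 987 for LAO1KO against WT with DSS (16), 149 and 447 for DKO against WT with DSS (48), 225 and 244 for DKO against WT averaged (106), and 105 and 354 for DKO against LAO1KO (45). With the replicate block over all groups 2 members passed in the averaged DSS comparison, 4 for DSS in WT (Aars added), 1 for LAO1KO against WT on water and 0 in the other comparisons. With the block in the WT libraries alone, added after the data were seen, 3 members and 2799 genes passed for DSS in WT. Neither block changed another member call. With 3 libraries per group, 1 library can decide a call, as WT water B did for Tars and Yars.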
